A study of Mus musculus with 6 samples.

Results

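The circadian clock genes Nr1d1, Nr1d2, Dbp, Tef, Hlf, Ciart, Per3, Arntl, Npas2 and Clock were followed in murine tissue that lay around engineered cartilage. These 10 genes, of 48440 in the count table, were chosen by their measured difference between the 3%-Axitinib and 0%-Axitinib groups together with their known place in the daily cycle. Their differences between the groups are therefore a description, and where the fit over all genes calls a member, the call only labels its value and is no evidence for the choice. Of the 10 genes, 7 are known to peak at or near the same phase as Nr1d1 (Nr1d1, Nr1d2, Dbp, Tef, Hlf, Ciart and Per3), and 3 are known to peak in antiphase (Arntl, Npas2 and Clock). All 10 genes passed the filter on low counts.

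The tissue was subcutaneous tissue of BALB/c nude mice, an athymic strain that lacks mature T cells but keeps its B cells and myeloid cells, and it surrounded cartilage that had been engineered from bone marrow stromal cells of rabbits and wrapped in an electrospun PCL/collagen membrane. Libraries were made from 3 samples with 0% axitinib in the membrane (0%-Axitinib group) and 3 samples with 3% axitinib (3%-Axitinib group), all taken 12 weeks after implantation. Untreated is the word the labels use for the first group, which was read as the 0%-Axitinib group because the series' own design names only these groups. Axitinib is an inhibitor of the VEGF receptors. The paper's methods describe samples collected with mouse tissue entangled in them, whose reads were then aligned to the mouse genome. Whether the libraries also held RNA of the rabbit cells is not stated. Any part of such RNA in the counts or in the unmapped reads was not tested. Which mouse each sample came from is not stated, and each mouse carried more than 1 construct, so p-values measure only the spread between these samples, which may lie within a mouse. The time of day at which the tissues were taken is not given in the sources used here. Between 9225518 and 18403795 reads were counted on genes per sample, and the lowest count of any of the 10 genes in any sample was 55, for Hlf. Expression is given as CPM, counts scaled to library size after normalization with TMM factors, on which scale a count of 3 equalled between 0.157 and 0.33 CPM.

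In the clock of mammalian cells, a dimer of the Arntl protein (BMAL1) with Clock or Npas2 binds E-boxes and switches on Per, Cry, Nr1d1, Nr1d2 and Dbp. PER and CRY proteins then repress the dimer, and the REV-ERB proteins made from Nr1d1 and Nr1d2 repress Arntl, Npas2 and Clock, so that the transcripts of both arms run in opposite phase over the day. Most tissues, including muscle, skin, fat and immune cells, run this clock, and glucocorticoids are among the signals that set it.

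Some libraries stood apart before any clock gene was considered. Skeletal muscle markers summed to 17090 CPM in 3%-Axitinib replicate 1 and 9585 CPM in replicate 3, but to 32.4 CPM in replicate 2, beside 189, 24.6 and 28.4 CPM in 0%-Axitinib replicates 1, 2 and 3. The B cell gene Cd79a stood at 101 CPM in 0%-Axitinib replicate 3 and at 2.33 CPM or less in the other 5 samples, and the T cell gene Cd3e stood there at 23.3 CPM, against 0.261 and 2.10 CPM in the other 0%-Axitinib libraries. Keratinocyte markers summed to 791 CPM in 0%-Axitinib replicate 2 and to 8.36 CPM or less elsewhere.

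The genes in phase with Nr1d1 lay higher after 3% axitinib, and the log2 fold change (log2FC) had a median of 1.52 over the 7 genes, whereas the 3 antiphase genes had a median of -0.31. Over all 15257 genes tested, the median was -0.03. Within the first arm the size varied widely, from a log2FC of 3.83 for Nr1d1 to 0.07 for Per3. The study's criterion, a change of 1.5-fold or more and a P-value (taken as unadjusted) no larger than 0.05, was met upward in edgeR's quasi-likelihood test by 4 of the 7 genes (Nr1d1, Dbp, Hlf and Ciart), where 9.54% of all tested genes met it in that direction. None of the 3 antiphase genes met it downward, where 11.7% of all tested genes did. These shares belong to the fit used here, not to the paper. The paper reported fewer differing genes, with more of them higher than lower. With Benjamini-Hochberg adjusted values of edgeR's quasi-likelihood test, computed across all tested genes, 1 of the 10 members, Nr1d1, passed 0.05, and it was the only gene to do so (0.00655%). No gene passed when 0%-Axitinib replicate 1 or 2 or 3%-Axitinib replicate 1 or 3 was left out, or with the mean of the muscle markers as a covariate, whereas 1252 passed without 0%-Axitinib replicate 3, 58 without 3%-Axitinib replicate 2 and 1961 in DESeq2's Wald test. The groups were separated, with all 3%-Axitinib samples on the upper side, for 5 of the 7 genes (14.7% of all tested genes), and none of the antiphase genes separated in the other direction (16.6%). Since the members were picked on this contrast, these counts support nothing further. In bulk tissue, fewer cells of a type and less RNA per cell cannot be told apart.

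**Figure D1:**
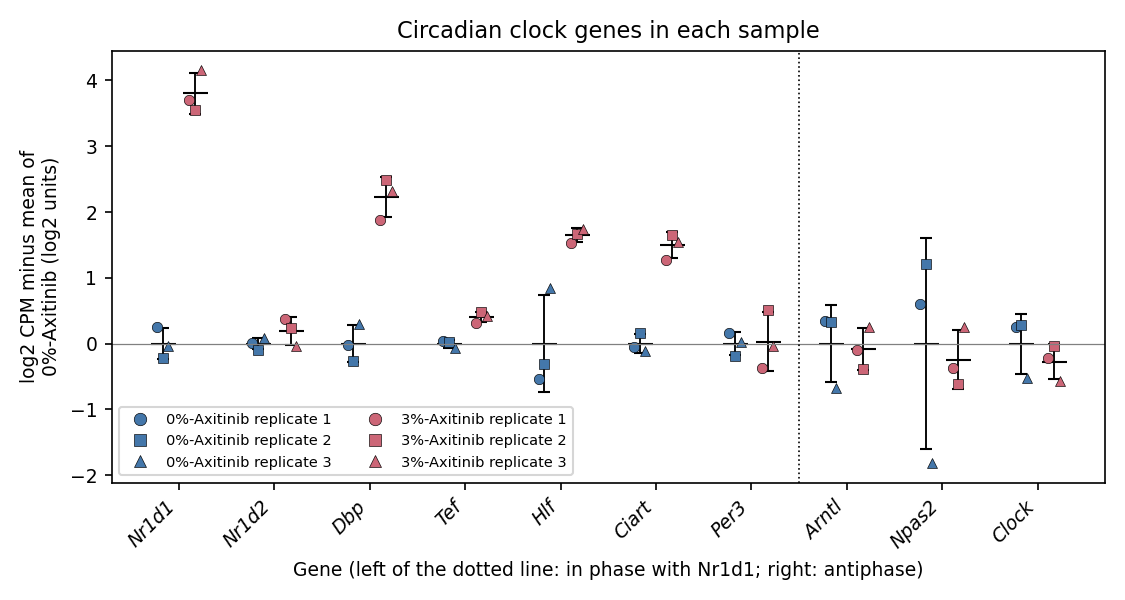
Log2 CPM of the 10 clock genes in each sample, minus the 0%-Axitinib mean (log2 units), with the mean and SD of each group (n = 3) as bars. Nr1d1, Dbp, Tef, Hlf and Ciart lie above all 0%-Axitinib samples in every 3%-Axitinib sample, whereas the 3%-Axitinib samples of Arntl, Npas2 and Clock overlap the 0%-Axitinib samples, of which replicate 3 is far below the others.

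Nr1d1 encodes REV-ERBα, the nuclear receptor that represses the activator arm of the clock. Its level was 11.9, 8.57 and 9.78 CPM in 0%-Axitinib replicates 1, 2 and 3, and 132, 119 and 180 CPM in 3%-Axitinib replicates 1, 2 and 3. The lowest 3%-Axitinib sample thus stood far above the highest 0%-Axitinib sample, and the group means of 10.1 ± 1.69 and 144 ± 32.3 CPM (SD, n = 3) differed 14.2-fold, a log2FC of 3.83 ± 0.26 (SE). Leaving out any single sample gave values between 3.63 and 3.97.

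Nr1d2 (chromosome 14, 18204054 to 18239127) encodes REV-ERBβ, the paralog of REV-ERBα with an overlapping role as a repressor. Its 0%-Axitinib samples had 55.4, 51.6 and 58.2 CPM, and its 3%-Axitinib samples 71.2, 64.8 and 53.6 CPM. The groups overlapped, and the log2FC was 0.20 ± 0.18 (SE), which was 0.11 without 3%-Axitinib replicate 1, 0.30 without 3%-Axitinib replicate 3 and 0.07 with libraries scaled by their totals. The ratio of Nr1d1 to Nr1d2 reads within a sample was 0.215, 0.166 and 0.168 in the 0%-Axitinib samples and 1.86, 1.83 and 3.36 in the 3%-Axitinib samples, so the paralog with fewer reads in one group was the one with more reads in the other.

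Nr1d1 lies on the minus strand of chromosome 11 of GRCm38, from 98767932 to 98775333, and its end overlaps that of Thra, the thyroid hormone receptor gene on the other strand, over 8.55% of the exonic bases of Nr1d1. Whether reads were counted by strand is not stated in the sources used here. Thra had 64.2, 50.2 and 46.9 CPM with 0% axitinib and 63.6, 59.1 and 74.3 CPM with 3% axitinib, with overlapping groups and a log2FC of 0.29 ± 0.20 (SE, adjusted p = 0.396 in edgeR's quasi-likelihood test). The Nr1d1 difference therefore had no counterpart of like size in its overlapping neighbour.

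Dbp, Tef and Hlf encode the PAR bZIP factors, which activate genes through D-boxes and carry the rhythm of the clock to output genes. Dbp (chromosome 7, 45705088 to 45710203) had 19.2, 16.2 and 23.9 CPM in 0%-Axitinib replicates 1, 2 and 3, and 72.4, 110 and 97.6 CPM in 3%-Axitinib replicates 1, 2 and 3. No sample of one group came near the other group. The means of 19.8 ± 3.90 and 93.2 ± 19.1 CPM (SD, n = 3) differed 4.72-fold, a log2FC of 2.24 ± 0.24 (SE). Of the exonic bases of Dbp, 18% are shared with Sphk2, a sphingosine kinase gene on the other strand, which had 54.3, 68.0 and 51.8 CPM with 0% axitinib and 64.8, 58.6 and 93.2 CPM with 3% axitinib. Sphk2 samples overlapped between the groups (log2FC 0.31 ± 0.23 SE, adjusted p = 0.437).

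Hlf (chromosome 11, 90336536 to 90390895) was the least abundant of the PAR bZIP genes, with 2.87, 3.38 and 7.66 CPM with 0% axitinib and 12.4, 13.7 and 14.5 CPM with 3% axitinib. The 3%-Axitinib samples were close to each other, and the spread lay in the 0%-Axitinib group, where replicate 3 was the highest. Its log2FC was 1.54 ± 0.42 (SE), which became 2.11 without 0%-Axitinib replicate 3 and 1.29 without 0%-Axitinib replicate 1.

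Tef (chromosome 15, 81802421 to 81826863) was measured at 121, 120 and 112 CPM with 0% axitinib and at 147, 164 and 158 CPM with 3% axitinib. These groups did not overlap either, but the step was small, with means that differed 1.32-fold and a log2FC of 0.41 ± 0.18 (SE). The trio thus ranked Dbp, Hlf and Tef by log2FC, and Tef, Dbp and Hlf by the number of reads. Within a sample, the ratio of Dbp to Tef reads was 0.159, 0.134 and 0.213 in the 0%-Axitinib group and 0.494, 0.669 and 0.619 in the 3%-Axitinib group.

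Ciart and Per3 encode repressors of the E-box arm. Ciart (chromosome 3, 95878503 to 95882251), whose protein CHRONO binds BMAL1, had 4.28, 4.96 and 4.07 CPM with 0% axitinib and 10.9, 14.2 and 13.2 CPM with 3% axitinib. The groups were well apart, with a log2FC of 1.52 ± 0.27 (SE). Per3 (chromosome 4, 151003652 to 151044665), a member of the period family, had 36.7, 28.8 and 33.4 CPM against 25.3, 46.6 and 32.0 CPM. For this gene the 3%-Axitinib group held both the lowest and the highest sample, and the log2FC of 0.07 ± 0.26 (SE) turned to -0.20 without 3%-Axitinib replicate 2, to -0.02 without 0%-Axitinib replicate 2 and to -0.07 when libraries were scaled by their totals only, but rose to 0.26 without 3%-Axitinib replicate 1 and to 0.36 with the mean of the muscle markers as a covariate.

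Arntl, Npas2 and Clock encode the activators. Arntl (chromosome 7, 113207465 to 113314126), the gene of BMAL1, had 14.0, 13.9 and 6.84 CPM in 0%-Axitinib replicates 1, 2 and 3 and 10.3, 8.38 and 13.1 CPM in 3%-Axitinib replicates 1, 2 and 3. All 3%-Axitinib samples lay inside the range of the 0%-Axitinib samples. The log2FC was -0.13 ± 0.36 (SE), and it was 0.03 or 0.02 when 0%-Axitinib replicate 1 or 2 was left out, 0.02 when 3%-Axitinib replicate 2 was, and -0.40 when 0%-Axitinib replicate 3 was.

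Npas2 (chromosome 1, 39193731 to 39363236), which can stand in for Clock as the partner of BMAL1, varied most. Its 0%-Axitinib samples had 17.7, 26.9 and 3.20 CPM, and its 3%-Axitinib samples had 8.91, 7.56 and 13.9 CPM, so 0%-Axitinib replicate 3 was the lowest of all. The log2FC was -0.65 ± 0.69 (SE). Without 0%-Axitinib replicate 3 it was -1.14 and Npas2 met the criterion, and without 0%-Axitinib replicate 2 it was -0.05.

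Clock (chromosome 5, 76209868 to 76304792) had 42.3, 43.3 and 24.7 CPM with 0% axitinib and 30.5, 34.7 and 24.0 CPM with 3% axitinib. The same 0%-Axitinib sample was again the low one, next to 3%-Axitinib replicate 3, and the log2FC was -0.31 ± 0.28 (SE). It was -0.53 without 0%-Axitinib replicate 3, -0.20 or -0.18 when 0%-Axitinib replicate 1 or 2 was left out, and -0.18 when 3%-Axitinib replicate 3 was. The 3 activator genes therefore shared their low sample in the 0%-Axitinib group, and none of them separated the groups over all samples. In 0%-Axitinib replicates 1 and 2 each was higher than in all 3%-Axitinib samples, for Arntl narrowly. That split was drawn after the values were seen and supports nothing further.

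The mean of the 7 genes in phase with Nr1d1, minus the 0%-Axitinib mean, was -0.02, -0.13 and 0.15 log2 units in 0%-Axitinib replicates 1, 2 and 3 and 1.24, 1.51 and 1.44 in 3%-Axitinib replicates 1, 2 and 3. For the 3 antiphase genes the same measure was 0.40, 0.61 and -1.01 in the 0%-Axitinib group and -0.23, -0.35 and -0.02 in the 3%-Axitinib group. The difference between both means, which cancels any scaling of a library, was -0.42, -0.73 and 1.15 in the 0%-Axitinib samples and 1.48, 1.86 and 1.46 in the 3%-Axitinib samples. The groups did not overlap on it, but 0%-Axitinib replicate 3 came close to the 3%-Axitinib samples through its low antiphase genes, not through genes in phase with Nr1d1. The gap was wide again for Nr1d1 against Arntl, with a ratio of reads of 0.848, 0.615 and 1.43 in the 0%-Axitinib samples and of 12.8, 14.2 and 13.7 in the 3%-Axitinib samples.

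Other genes overlap members with few or no exonic bases. C920021L13Rik, antisense to Ciart, had 3.29, 3.79 and 1.36 CPM against 1.54, 0.82 and 1.51 CPM, and Camta1, a transcription factor gene whose body holds Per3 on the same strand, had 11.1, 11.5 and 19.8 CPM against 18.4, 30.1 and 14.7 CPM. Neither met the criterion in all samples (-1.12 and 0.57), and both did without 0%-Axitinib replicate 3 (-1.45 and 0.89), as did Camta1 with the muscle covariate (1.04). C920021L13Rik was -0.85 without 0%-Axitinib replicate 2, and Camta1 was 0.23 without 3%-Axitinib replicate 2. Gm17597 at Tef, Gm20428 and Gm3617 at Npas2, and Ube2n-ps1 and Gm43658 at Clock were filtered out, with 13 reads or fewer in each sample, and Gm45355 at Arntl was not matched in the table.

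Levels of different genes were compared as CPM per kilobase of merged exons (GENCODE M21, GRCm38). Among the 10 members in the 0%-Axitinib group, Tef had the highest mean level at 14.99 CPM per kilobase, followed by Nr1d2 at 10.2 and Dbp at 6.60, and the samples of these genes did not overlap. Per3 (3.43), Npas2 (3.33), Nr1d1 (3.28) and Clock (2.68) followed with overlapping samples, then Ciart (1.96), Arntl (1.54) and Hlf (0.694), each of which overlapped its neighbour. In the 3%-Axitinib group, Nr1d1 had the highest mean level of the 10 at 46.7 CPM per kilobase, ahead of Dbp at 31.2, Tef at 19.8 and Nr1d2 at 11.7, again without overlap. The level of Ciart was 5.65 and that of Per3 3.61, with overlapping samples, and Clock, Npas2, Hlf and Arntl lay between 2.17 and 1.41. Other listed genes lay above these members, such as Bhlhe40 at 30.5 in the 0%-Axitinib group and Tsc22d3 at 140.3 in the 3%-Axitinib group.

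Of 11 other listed genes of the clock loops, 2 met the criterion as higher (Per1 and Cry2) and 1 as lower (Cry1) in the 3%-Axitinib group, beside the shares of 9.54% and 11.7% of all genes tested. None passed the adjustment in edgeR's quasi-likelihood test. In DESeq2's Wald test, where 1961 genes passed it, the unadjusted p was 1.43e-05 for Cry1, 0.00338 for Per1 and 0.0068 for Cry2. Cry1, a repressor whose transcript is known to peak later than those of Nr1d1 and Dbp, had 28.1, 31.5 and 24.8 CPM with 0% axitinib and 13.7, 14.8 and 13.8 CPM with 3% axitinib. Its 3%-Axitinib samples agreed closely and lay below all 0%-Axitinib samples, with a log2FC of -0.997 ± 0.20 (SE, adjusted p = 0.0965, edgeR's quasi-likelihood test). It met the criterion with any single sample left out.

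Cry2, the paralog of Cry1, went the other way, from 44.1, 29.9 and 22.9 CPM to 79.7, 44.7 and 70.9 CPM. The groups were separated by a narrow margin, and the log2FC was 1.01 ± 0.32 (SE, adjusted p = 0.138). It fell short of the criterion without 3%-Axitinib replicate 1 (0.84) or replicate 3 (0.94) and when the mean of the muscle markers was a covariate (0.46), and stood at 1.30 without 0%-Axitinib replicate 1.

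Per1, a period gene that also responds to glucocorticoids, had 103, 127 and 51.4 CPM with 0% axitinib and 222, 164 and 245 CPM with 3% axitinib. All 3%-Axitinib samples were above all 0%-Axitinib samples (log2FC 1.16 ± 0.36 SE, adjusted p = 0.136). The criterion was missed without 3%-Axitinib replicate 3 (1.03) and with the muscle covariate (0.87), and the log2FC was 1.44 without 0%-Axitinib replicate 2. Per2, its paralog, had 61.5, 61.9 and 21.7 CPM against 36.2, 38.6 and 37.2 CPM, a log2FC of -0.37 ± 0.39 (SE, adjusted p = 0.575) that became -0.73 and met the criterion without 0%-Axitinib replicate 3, and was -0.16 without 0%-Axitinib replicate 2.

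The remaining listed loop genes did not meet the criterion. Their log2FC values were 0.31 for Rora and 0.52 for Rorb, which encode receptors that compete with REV-ERB proteins for their sites, 0.75 for Nfil3, the D-box repressor, 0.33 for Bhlhe40 and -0.60 for Bhlhe41, which encode the E-box repressors DEC1 and DEC2, 0.13 for Arntl2 and -0.62 for Timeless. Several of these values rested on a single library. Timeless was 0.04 without 0%-Axitinib replicate 3, where it stood at 31.7 CPM against 14.1 and 8.92 CPM in replicates 1 and 2. It was -0.95 without 0%-Axitinib replicate 2. Arntl2 was -0.10 without 0%-Axitinib replicate 3, -0.25 without 3%-Axitinib replicate 2 and -0.003 with libraries scaled by their totals. It was 0.51 with the muscle covariate and 0.30 when 0%-Axitinib replicate 2 or 3%-Axitinib replicate 1 was left out. Nfil3, at 19.2, 14.3 and 19.8 CPM against 51.4, 14.6 and 24.1 CPM, was 0.13 without 3%-Axitinib replicate 1 and -0.20 with the muscle covariate, and it met the criterion without 3%-Axitinib replicate 2 (1.08). Rora was -0.02 without 3%-Axitinib replicate 1 and -0.09 with the muscle covariate, but 0.54 without 0%-Axitinib replicate 2. Bhlhe41 met the criterion without 0%-Axitinib replicate 3 (-0.96) and was -0.15 without 0%-Axitinib replicate 2. With a single sample left out, Bhlhe40 ranged from 0.06 (0%-Axitinib replicate 3) to 0.58 (0%-Axitinib replicate 1), and Rorb from 0.26 to 0.89 with the same samples omitted. With the muscle covariate Bhlhe40 was 0.02.

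**Figure D2:**
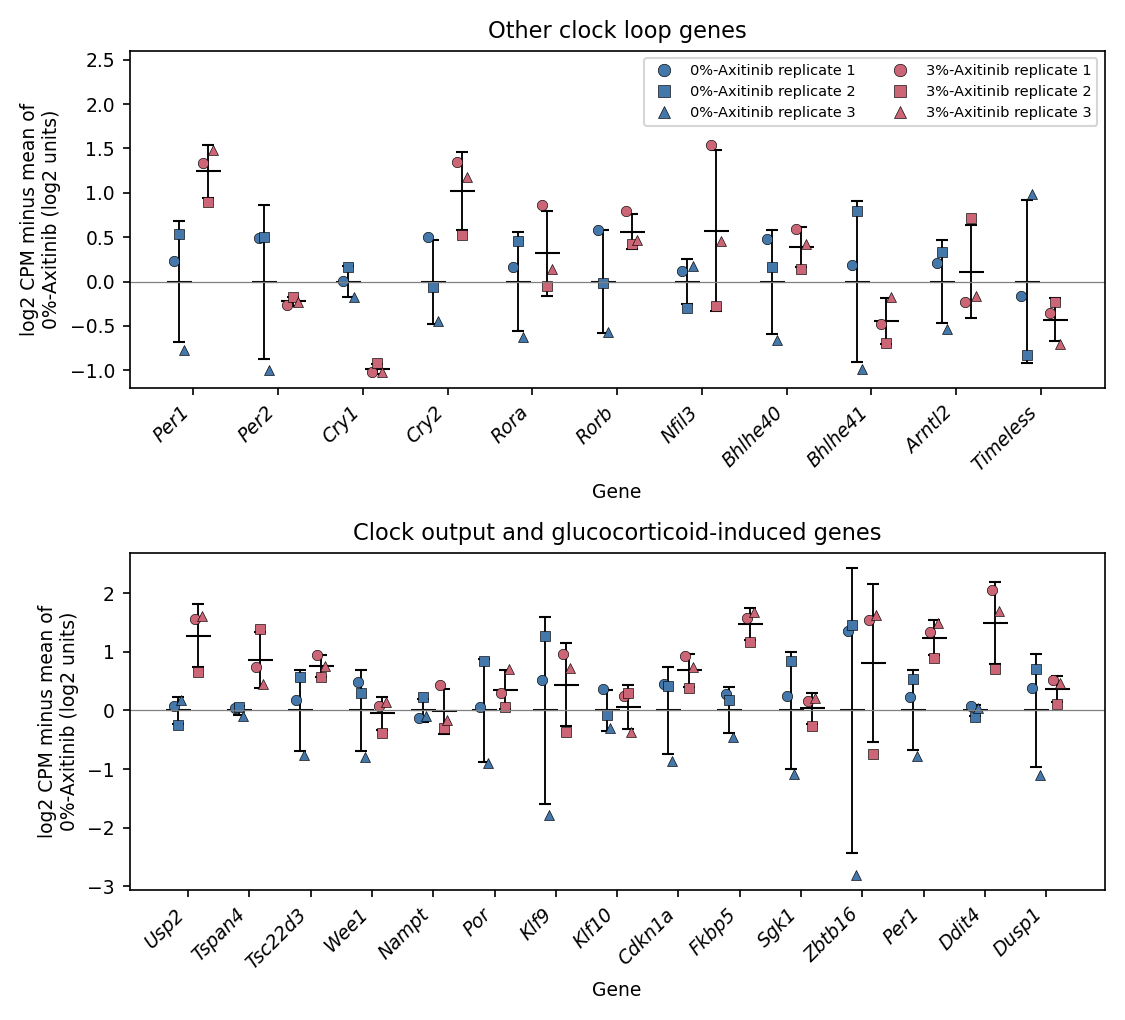
Log2 CPM of other clock loop genes (top) and of clock output and glucocorticoid-induced genes (bottom) in each sample, minus the 0%-Axitinib mean (log2 units), with the mean and SD of each group (n = 3). Cry1 is lower in all 3%-Axitinib samples and Per1, Cry2, Usp2, Tspan4, Fkbp5 and Ddit4 are higher, while 0%-Axitinib replicate 3 is the lowest of its group for Per1, Per2, Klf9 and Zbtb16.

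Of 7 listed genes whose proteins modify clock proteins, 6 were tested (Fbxl21 had between 4 and 17 reads per sample and was filtered out), and 2 met the criterion as lower in the 3%-Axitinib group, beside 11.7% of all genes tested. Sirt1, a deacetylase that acts on BMAL1 and PER2, had 28.8, 35.2 and 32.6 CPM against 20.02, 16.4 and 13.7 CPM, a log2FC of -0.95 ± 0.22 (SE, adjusted p = 0.0973). Fbxw11, a ligase subunit that targets PER proteins, had a log2FC of -0.63 ± 0.19 (SE, adjusted p = 0.129), which was -0.49 and short of the criterion without 3%-Axitinib replicate 2 and -0.87 with the muscle covariate. The casein kinase genes Csnk1d (-0.10) and Csnk1e (-0.19), Gsk3b (-0.46) and Btrc (0.16) did not meet the criterion. The exception was Gsk3b when libraries were scaled by their totals (-0.59). Without 3%-Axitinib replicate 2, Csnk1d was 0.04, Csnk1e -0.074 and Btrc 0.24. Without 3%-Axitinib replicate 1, Csnk1e was -0.31 and Btrc 0.056. Without 3%-Axitinib replicate 3, Csnk1d was -0.221 and Gsk3b -0.301. With the muscle covariate the values were -0.345 for Csnk1d, -0.405 for Csnk1e, -0.284 for Gsk3b and 0.014 for Btrc.

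Among 9 listed genes known as outputs of the clock, 2 met the criterion as higher and none as lower, beside 9.54% and 11.7% of all genes tested. Usp2, a ubiquitin protease that cycles in many tissues, had 12.2, 9.74 and 13.1 CPM with 0% axitinib and 34.5, 18.3 and 35.8 CPM with 3% axitinib (log2FC 1.34 ± 0.31 SE, adjusted p = 0.0973). The tetraspanin gene Tspan4 had 132, 134 and 121 CPM against 215, 337 and 177 CPM (log2FC 0.92 ± 0.28 SE, adjusted p = 0.134). Both genes separated the groups completely, and with the muscle covariate their log2FC was 0.76 for Usp2 and 1.25 for Tspan4. Without 3%-Axitinib replicate 2 it was 1.59 for Usp2 and 0.61 for Tspan4. The others (Tsc22d3, Wee1, Nampt, Por, Klf9, Klf10 and Cdkn1a) had log2FC values between -0.13 and 0.66, of which Tsc22d3 (0.66) met the criterion without 0%-Axitinib replicate 2 (0.97) but was 0.36 without 0%-Axitinib replicate 3. Cdkn1a (0.59) was 0.27 without the latter, 0.25 with the muscle covariate and 0.78 without 0%-Axitinib replicate 1, while Wee1, Nampt, Por, Klf9 and Klf10 turned direction with at least 1 single sample left out.

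Of 8 genes induced by glucocorticoids, which include Per1, Tsc22d3 and Klf9 of the lists above, 3 met the criterion as higher, beside 9.54% of all genes tested. Besides Per1 these were Fkbp5, a chaperone of the glucocorticoid receptor, with 118, 110 and 71.5 CPM against 293, 220 and 314 CPM (log2FC 1.46 ± 0.28 SE, adjusted p = 0.0965), and Ddit4, an inhibitor of mTORC1 that hypoxia also induces, with 48.7, 42.7 and 47.3 CPM against 193, 75.3 and 150 CPM (log2FC 1.59 ± 0.34 SE, adjusted p = 0.0972). Ddit4 was higher in the 3%-Axitinib libraries rich in muscle markers, and with the muscle covariate its log2FC was 0.82 and that of Fkbp5 1.16. Sgk1 (-0.15), Zbtb16 (0.29), Klf9 (0.08) and Dusp1 (0.19) did not meet it. Without 0%-Axitinib replicate 3 the values were -0.26 for Zbtb16, -0.40 for Klf9 and -0.18 for Dusp1, and with the muscle covariate they were -1.33, -0.65 and -0.05. Without 0%-Axitinib replicate 2, Klf9 was 0.76, Dusp1 0.55 and Sgk1 0.32, while Sgk1 was -0.53 without 0%-Axitinib replicate 3 and Zbtb16 was 0.89 in limma-voom. Here too 0%-Axitinib replicate 3 was low: Zbtb16 had 29.1, 31.4 and 1.52 CPM in the 0%-Axitinib samples, and Klf9 62.0, 105 and 12.5 CPM. The mean of the glucocorticoid list in the 0%-Axitinib samples, relative to their own mean, was 0.41, 0.68 and -1.09 log2 units, and in the 3%-Axitinib samples it was 1.14, 0.26 and 1.08. For the antiphase clock genes the values were 0.40, 0.61 and -1.01, and -0.23, -0.35 and -0.02, so the lists shared the low 0%-Axitinib sample. In both, 3%-Axitinib replicate 2 lay below 0%-Axitinib replicates 1 and 2, but replicates 1 and 3 did so only for the antiphase genes. By the same measure, 0%-Axitinib replicate 3 was also lowest of its group for fibroblast markers (-0.73) and other clock loop genes (-0.42). It was the highest for endothelial (0.38) and leukocyte (0.56) markers.

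Of 22 skeletal muscle markers, 20 were tested and 18 met the criterion as higher (12 to 21 with a single sample left out), beside 9.54% of all genes tested. Only 2 of the 20 separated the groups, limma-voom called 1 as higher, and with their own mean as a covariate 4 were higher and 4 lower. The most abundant was Acta1, skeletal actin, which stood at 3924 CPM in 3%-Axitinib replicate 1 but at 0.0911 CPM in replicate 2, and Tnnc2 stood at 3 reads or fewer in every sample. The mean of the clock genes in phase with Nr1d1, minus the 0%-Axitinib mean, was 1.24, 1.51 and 1.44 log2 units in 3%-Axitinib replicates 1, 2 and 3. The summed muscle markers were low in replicate 2 of this group (32.4 CPM) and in 0%-Axitinib replicates 2 and 3 (24.6 and 28.4 CPM). With the mean of the muscle markers as a covariate, the log2FC values were 3.58 for Nr1d1, 2.45 for Dbp, 1.72 for Hlf and 1.68 for Ciart. The part of muscle in the clock gene differences was not tested.

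Endothelial markers were lower, with 11 of 12 meeting the criterion (8 to 11 with a single sample left out) beside 11.7% of all genes tested, and summed to 998, 676 and 1101 CPM with 0% axitinib and to 279, 312 and 427 CPM with 3% axitinib (Pecam1 was the most abundant). For leukocyte markers, led by Laptm5, 4 of 12 met it as lower (Ptprc, Lcp1, Cd79a and Cd3e), and the sums were 5773, 7620 and 6253 CPM against 3120, 3586 and 5130 CPM. Cd79a and Cd3e owed their size to 0%-Axitinib replicate 3, and without it Cd3e did not meet the criterion, Cd79a did, and 6 markers did in all. The count was 6 also without 0%-Axitinib replicate 1, 2 without 3%-Axitinib replicate 1 or 3, 2 in limma-voom and 1 (Ptprc) with the muscle covariate. Of 8 adipocyte markers, led by Lpl, 2 met it as lower (1892, 2891 and 1389 CPM against 1036, 764 and 1240 CPM), and 7 did without 3%-Axitinib replicate 1, in limma-voom or with the muscle covariate. Cartilage markers, of which 8 of 9 were in the table and 7 tested, met it as higher in 5 cases (3 without 3%-Axitinib replicate 2), summed to 359, 213 and 166 CPM against 309, 1237 and 475 CPM, and were led by Comp, while Matn3 stood at 3 reads or fewer in every sample. Fibroblast markers, led by Col1a1, were abundant in all samples, from 10220 to 71620 CPM, and 2 of 8 met it as higher, a number that was 0 with libraries scaled by their totals, with the replicate number as a block, without 0%-Axitinib replicate 2 or 3 or without 3%-Axitinib replicate 2 or 3, 1 without 3%-Axitinib replicate 1, and 3 without 0%-Axitinib replicate 1 or in DESeq2's Wald test. Of 5 keratinocyte markers, led by Krt1, 2 were tested and 1 met it as lower. This was Krt10, at 3.55, 222 and 3.42 CPM against 5.17, 6.47 and 3.47 CPM, which was high in 0%-Axitinib replicate 2 alone, and no keratinocyte marker met the criterion without that library, without any one 3%-Axitinib sample, in DESeq2's Wald test or limma-voom, or with the block or the muscle covariate. The parts of these cell types in the clock gene differences were not tested. Whether reads from rabbit cells added to the cartilage marker counts was not tested either.

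Unmapped reads made up 5.47%, 3.84% and 14.9% of the 0%-Axitinib libraries and 48.4%, 29.2% and 16.8% of the 3%-Axitinib libraries. Among the 3%-Axitinib samples, Nr1d1 was highest (180 CPM) in the one with the smallest share, replicate 3, which also had the most reads counted on genes. The part of unmapped reads in the differences was not tested.

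**Figure D3:**
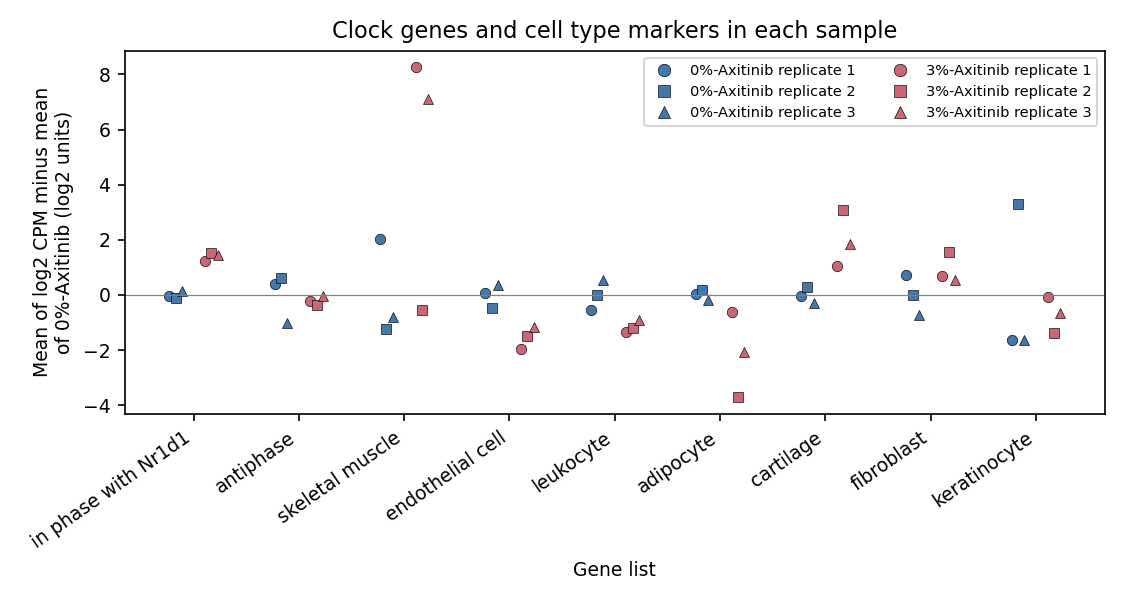
Mean log2 CPM of the tested genes of each list in each sample, minus the 0%-Axitinib mean (log2 units), for the clock genes and the cell type markers. The genes in phase with Nr1d1 lie between 1.24 and 1.51 in all 3%-Axitinib samples, and among these samples the muscle markers are high in replicates 1 and 3 only.

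The profiles most like that of Nr1d1 were sought among all tested genes with a mean of at least 1 CPM, by the root mean square difference of centred log2 CPM over the 6 samples. The closest were Mt1, a metallothionein (0.498 log2 units), Slc30a2, a zinc transporter (0.552), and Slc38a4, an amino acid transporter (0.557). Mt1 had 249, 215 and 223 CPM with 0% axitinib and 2508, 1831 and 1574 CPM with 3% axitinib, so it shared the step between the groups but not the order of the 3%-Axitinib samples. For Arntl, the closest were Ldoc1l (0.0347), Smurf1, a ubiquitin ligase gene (0.0584), and 3222401L13Rik (0.0636). Ldoc1l had 10.8, 11.0 and 5.11 CPM against 8.25, 6.38 and 10.5 CPM, with the same low 0%-Axitinib sample as Arntl.

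Promoter windows from 250 bases before to 50 bases after annotated starts (RefSeq, GRCm38.p6) were found for all 10 genes, 14 windows in all, and were searched on both strands for the E-box CACGTG, the site of the BMAL1 dimer, and the D-box TTANGTAA, the site of PAR bZIP factors and Nfil3. The E-box was in 3 of the 14 windows, those of Ciart and both starts of Tef, and in 7.15% of all 32817 windows. The D-box was in 1 of 14, that of Per3, and in 2.32% of all windows. A search for TNGGTCA, the core of the site shared by REV-ERB and ROR receptors, found it in 4 of 14 windows (2 of Arntl, 1 of Tef and 1 of Per3) and in 11% of all windows, and these letters overlap those of the inverted CCAAT box. Windows without a match, such as those of Nr1d1 and Dbp, say only that these letters are not within this stretch.

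Ciart and Per3 are shown because both had more than 1 E-box or D-box in a window, and the groups were separated for Ciart but overlapped for Per3. Each line gives the strand of the gene, 5′ to 3′, with the E-box or D-box in capitals. The Ciart sites lie at chr3:95882319-95882364 and chr3:95882261-95882306 on the minus strand, 116 and 58 bases before the start, and another E-box follows the latter and is seen there in lower case. The Per3 sites lie at chr4:151044843-151044890 and chr4:151044796-151044843 on the minus strand, 205 and 158 bases before the start.
Ciart first E-box: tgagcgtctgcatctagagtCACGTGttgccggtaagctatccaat
Ciart second E-box: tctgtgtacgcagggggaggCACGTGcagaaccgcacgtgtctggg
Per3 first D-box: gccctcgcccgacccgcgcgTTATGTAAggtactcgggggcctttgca
Per3 second D-box: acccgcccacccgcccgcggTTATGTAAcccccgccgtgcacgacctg
Both D-boxes of Per3 read TTATGTAA, and whether PAR bZIP factors or Nfil3 act through them here was not tested. Each match is a description of letters, not of a bound site.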

How the data were processed

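For each of the 6 samples, the deposited values are whole read counts per gene, not normalized. Per the paper's methods, poly(A) RNA was sequenced, reads were filtered with Fastp and mapped to mm10 with STAR (version 2.5.2b in the submitters' processing notes), and the layout is that of STAR's gene counts. The annotation and the strand setting are not given in the sources used here. The 4 lines of reads given to no gene were kept out of library sizes (unmapped 3.84% to 48.4% of all reads, multimapping 2.71% to 6.65%, outside genes 3.17% to 6.14%, ambiguous 3.55% to 5.74%). Counts were tested in R 4.3.3 with edgeR 4.0.16 (filterByExpr with a minimum count of 10 and a minimum total of 15, TMM, quasi-likelihood test, Benjamini-Hochberg adjustment over all genes tested). The standard error is the log2 fold change divided by the root of its F statistic. Log2 CPM used a prior count of 2. Depth is given per sample in counted reads. The test was also run on simulated counts, and the outcome of that run is not reported here. Positions and exon lengths came from GENCODE M21.

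The members and all lists, which were written from general knowledge, were chosen with earlier results of these data known. Named genes were the members, the other clock loop genes listed, listed clock-related genes that met the criterion, the most abundant marker of each list and markers at 3 reads or fewer, genes whose exons or body overlap a member, and the 3 nearest profiles to Nr1d1 and to Arntl, and the other list members named were picked after their values were seen. Some clock-related genes, including genes that met the criterion, are not reported here and are not in the lists or their counts. Samples of a group were treated as independent. Alternatives were DESeq2 1.42.0 (size factors, Wald test), total counts, TMM without muscle markers, limma 3.58.1 (voom), other filters, a block, a muscle covariate and each sample left out. Python 3.11.15 and matplotlib 3.10.9 drew the figures.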

Additional observations from a re-analysis of the deposited data

Results flagged for a closer look

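Reads that STAR could not map enter none of the comparisons. Their share of a library was 31.5% ± 15.9 (SD, n = 3) with 3% axitinib, against 8.08% ± 5.99 (SD, n = 3) with 0% axitinib. It was noted because every 3%-Axitinib library had a larger share than every 0%-Axitinib library. The origin of these reads, whether mouse, rabbit or other, was not analysed here, and no cause was tested.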

How the results depend on the processing

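The 4 members that met the criterion (Nr1d1, Dbp, Hlf and Ciart) did so under all 15 alternatives, with log2FC values between 3.58 and 3.97 for Nr1d1, 2.10 and 2.45 for Dbp, 1.29 and 2.11 for Hlf and 1.39 and 1.68 for Ciart. The median of the genes in phase with Nr1d1 ranged, with single samples left out, from 1.29 (0%-Axitinib replicate 1 omitted) to 1.62 (3%-Axitinib replicate 1 omitted), and was 1.36 without 0%-Axitinib replicate 2. The median of the antiphase genes lay between -0.53 and -0.05 in the same refits. Scaling by total counts moved the median of all tested genes from -0.03 to -0.16 and the calls from 1456 higher and 1785 lower to 989 and 2448.

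With an adjusted p of at most 0.05, edgeR's quasi-likelihood test called 1 gene, and 15 without a filter on low counts. DESeq2's Wald test called 1961 and limma-voom 2. With a sample left out the number lay between 0 and 1252 (without 0%-Axitinib replicate 3), with 58 without 3%-Axitinib replicate 2. It was 0 without any other single sample, although 2417 to 3513 genes then passed 0.05 before adjustment, and 0 with the muscle covariate, where 1767 genes passed it. The muscle covariate lowered the genes meeting the criterion from 3241 to 1766 and the other clock loop genes among them from 3 to 1 (Cry1). With single samples left out, the number of these loop genes ranged from 1, when 3%-Axitinib replicate 3 was omitted, to 5, when 0%-Axitinib replicate 3 was. Of the modifiers, 2 met it, 1 without 3%-Axitinib replicate 2 and 3 with total counts. Over 524 refits of the listed clock-related genes and the genes overlapping a member, cell type markers not included, 37 turned direction, 6 lost the criterion and 8 came to meet it. Over 150 of the members, 6 turned direction (Per3 and Arntl), 1 came to meet it (Npas2) and 0 lost it. The causes of these shifts were not tested.

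The replicate number as a block gave 2 adjusted calls and 2603 genes meeting the criterion. Deviations from the group means of same-numbered samples correlated across genes at 0.18, -0.12 and -0.17 for numbers 1, 2 and 3, so the numbers were not taken to pair the samples. Among the loop genes, depth limits Rorb and Arntl2 most, with as few as 19 and 18 reads in a sample.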
